A study of Homo sapiens with 3 samples.

Results

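The 39 genes described here are established transcriptional targets of the tumour suppressor p53. Their RNA was measured in TK-10, a line of human renal carcinoma cells, on 3 Agilent arrays with 1 dye each. They were taken as a named list of target genes. A probe belonged to a gene when its RefSeq accession was listed for that gene, and 53 probes did so, out of 22439 genes with a named probe in all. All 39 genes had at least 1 probe, 26 of them exactly 1.

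One array held RNA of cells given vehicle, 0.1% DMSO. One held RNA of cells labelled as treated with cordyceps at 750 μg/ml, where the paper on these arrays names cordycepin, a nucleoside of the Cordyceps fungus, at another dose. The third held RNA of cells given 10 μM sunitinib, an inhibitor of receptor tyrosine kinases used against renal cancer. Each exposure lasted 48 h. Per the labels, all cells grew in DMEM with 10% fetal bovine serum and penicillin-streptomycin, to which zinc sulfate at 16.7 μM, troglitazone at 10 μM and nicotinamide at 10 mM had been added. The vehicle cells thus received these additives as well, and the paper's methods do not list zinc sulfate, troglitazone or nicotinamide. The comparisons ask which of the p53 targets differed in each treated culture from the vehicle culture. Each condition had 1 array, which limits the precision, so the differences were not tested over replicates and carry neither a p-value nor an SD. Separate cultures are not stated. Both comparisons share the vehicle array, and in RNA from a whole culture fewer cells of a kind and less RNA per cell cannot be told apart.

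p53 is a transcription factor that is kept at a low level by the ubiquitin ligase MDM2 and accumulates after DNA damage, nucleotide shortage, ribosomal stress and other insults. It binds DNA as a tetramer, at pairs of short palindromic decamers, and switches on genes that stop the cell cycle, repair DNA, alter metabolism or kill the cell, together with genes such as MDM2 that switch p53 off again. Many of these genes are also expressed in unstressed cells, kidney epithelium among them, and many respond to other transcription factors as well.

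The decamers are shown first because they are the sequence by which p53 finds a target. RefSeq promoter windows of GRCh38.p14, from 250 bases before to 50 bases after the transcription start, were found for 34 of the 39 genes, with 48 windows in all since some genes have several starts. The p53 decamer consensus, a purine and pyrimidine palindrome around the core letters CNNG with A or T in place of each N, was found in 7 of the 48 windows (14.6%) and in 2329 of 35116 windows of all genes (6.63%). The consensus is its own reverse complement, so a search of 1 strand covers both. A match of these letters is a description and not a binding site. A pair of decamers with at most 13 bases between them was found in the DDB2 window only among these genes, and in 10 of the 35116 windows of all genes (0.0285%). The stretches around the 7 matches follow, 5′ to 3′ on the gene's strand, with the matching decamers in capitals.
RAP2B, chr3:153162140-153162199, plus strand: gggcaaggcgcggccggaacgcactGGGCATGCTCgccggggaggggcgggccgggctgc
PLK2, chr5:58460184-58460243, minus strand: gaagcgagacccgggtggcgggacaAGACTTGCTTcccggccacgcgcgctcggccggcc
SESN1, chr6:109009003-109009062, minus strand: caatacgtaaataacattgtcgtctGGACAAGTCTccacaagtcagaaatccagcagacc
DDB2, chr11:47214954-47215003, plus strand: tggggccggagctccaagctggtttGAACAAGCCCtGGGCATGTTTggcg
RPS27L, chr15:63157502-63157561, minus strand: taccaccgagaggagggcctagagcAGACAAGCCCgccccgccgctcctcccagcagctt
AEN, chr15:88621281-88621340, plus strand: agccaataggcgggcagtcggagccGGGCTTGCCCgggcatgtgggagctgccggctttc
FDXR, chr17:74872971-74873030, minus strand: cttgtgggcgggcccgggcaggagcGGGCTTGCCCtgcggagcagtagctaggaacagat
In DDB2 the first decamer starts 6 bases after the transcription start, and 1 base separates it from the second. In the other 6 genes the decamer starts 11 to 132 bases before the start. These 7 genes differed in their values, which are given with each gene below.

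Of the array itself, 45.5% of the probes were well above background in vehicle, 37.8% in cordyceps and 38.3% in sunitinib, and the 75th percentile of the processed signal was 165, 138 and 78.2 in that order. Signals are therefore given as multiples of the array's own 75th percentile, called scaled signals, and a log2 ratio compares the scaled signals of 1 probe on 2 arrays. Levels of different probes are not compared. The 3 arrays lay on 1 slide and were scanned together. A bright area of 567 spots on the cordyceps array and of 40 spots on the sunitinib array held no probe of the 39 genes. Of 13 kidney epithelium and renal carcinoma markers with a probe, 12 were above background on every array and CA9 on none, with summed scaled signals of 2259, 1933 and 2894 in vehicle, cordyceps and sunitinib. These sums rest mostly on the bright probes of KRT19, VIM and KRT18. In cordyceps 4 of the 12 were lower beyond the spot error. Their log2 ratios were −2.38 for CDH6, −0.87 for PAX8, −0.77 for LHX1 and −0.62 for PAX2, while MME was higher at 1.15. In sunitinib 3 were higher beyond it, PAX2 at 0.77, VIM at 0.656 and KRT8 at 0.572. There 3 were lower, LHX1 at −0.925, ANPEP at −0.819 and PAX8 at −0.456. Of 10 markers of blood, endothelial, stromal and liver cells, 4 or 5 were above background on each array, with sums of 38.1, 12.2 and 8.54. COL1A1 was lower, with log2 ratios of −2.06 in cordyceps and −2.71 in sunitinib, and CD14 was above background on all 3 arrays, with −0.64 and −1.50. PTPRC was above background in vehicle and sunitinib, with a log2 ratio of 2.39, against the direction of the sum, which rests mostly on COL1A1. The vehicle signal of PTPRC was 18.4, close to 18.2, the lowest signal called above background on that array. Relative to the median gene under normexp its ratio was 1.08. CD3E, PECAM1, COL3A1 and ALB were among those above background on none. Of the other endothelial markers, CDH5 was above background on every array, with log2 ratios of −0.185 in cordyceps and 0.232 in sunitinib. VWF was above it in vehicle and cordyceps, with −0.143. With the sunitinib side set at the detection limit, VWF was −1.33 there, and −0.28 relative to the median gene under normexp. The part of changes in cell make-up in the ratios of the p53 targets was not tested.

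**Figure D1:**
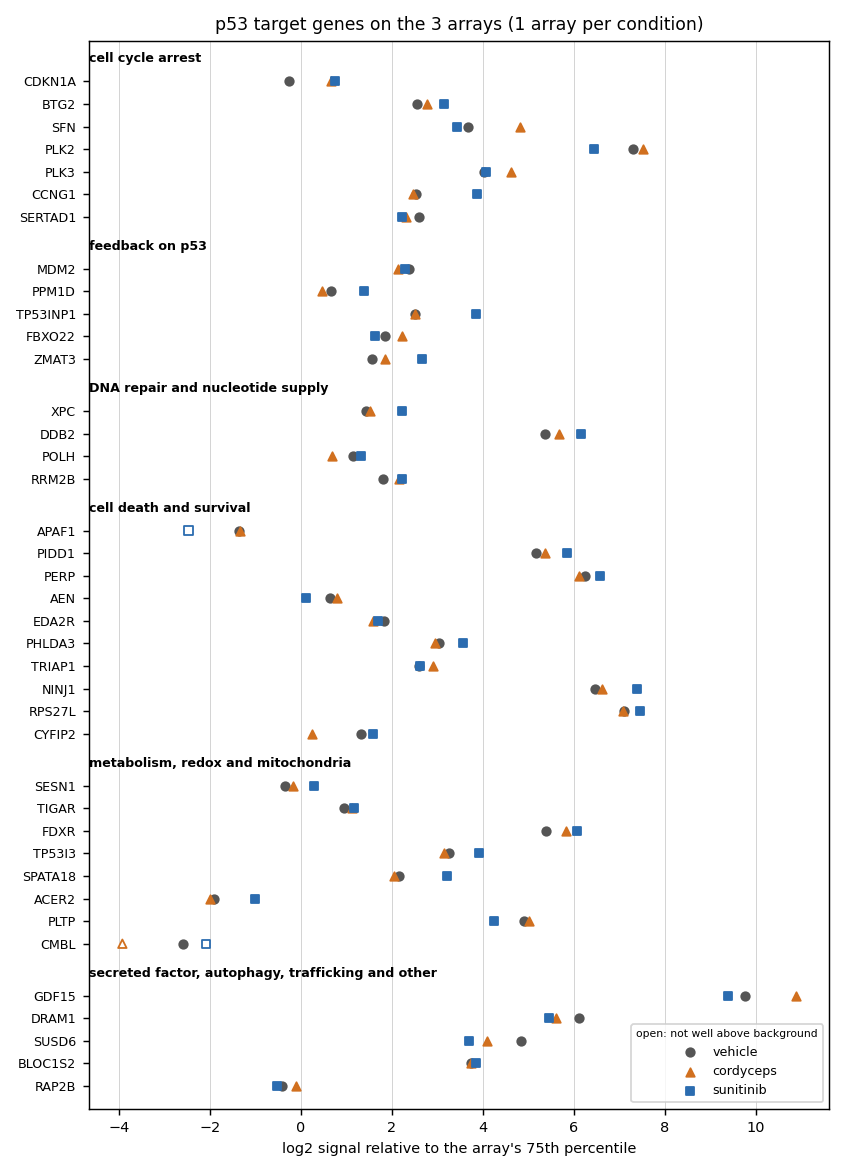
Scaled signal of the 39 p53 target genes on the 3 arrays, as log2 relative to the array's 75th percentile on the horizontal axis, grouped by role, with 1 point per array and open points for probes not well above background. The points of most genes lie close together, and GDF15 and SFN stand to the right in cordyceps while CCNG1, TP53INP1, ZMAT3 and SPATA18 stand to the right in sunitinib.

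In the cordyceps array, 2 of the 39 p53 targets were more than 2-fold higher than in vehicle, GDF15 and SFN, against a background of 2.99% of all genes compared. CYFIP2 was more than 2-fold lower, against 2.76% of all genes. The median log2 ratio of the 39 genes was 0.08, beside 0.00 for all genes, and 22 lay above 0 and 16 below. Of 14776 genes compared, 6808 (46.1%) lay above 0 and 7092 below, and the rest counted as 0. With no filter on dim probes the members' median stayed at 0.08 beside 0.14 for all genes, and under quantile normalization it was 0.00 beside −0.03. In the sunitinib array, 4 were more than 2-fold higher, CCNG1, TP53INP1, ZMAT3 and SPATA18, against 6.44% of all genes, and SUSD6 was more than 2-fold lower, against 6.52%. The median in sunitinib was 0.26, beside 0.00 for all genes, with quartiles of −0.17 and 0.70 for the 39 genes and −0.37 and 0.36 for all genes. There, 25 of the 39 lay above 0 and 13 below. Of 14897 genes compared, 6719 (45.1%) lay above 0 and 7272 below, and the rest counted as 0. Under normexp background correction the members' median in sunitinib was 0.08 beside −0.07 for all genes. With no filter on dim probes it was 0.33 beside 0.24 for all genes, so the members lay closer to all genes there.

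At a limit of 1.5-fold, 4 of the 39 were higher in cordyceps (8.72% of all genes) and 2 lower (8.95%), whereas 15 were higher in sunitinib (15.4%) and 5 lower (15.6%). The 5 lower include APAF1, which was not well above background in sunitinib and for which no direction is given below. The scanner software estimates an error for each spot, and its 95% limit for a log2 ratio was 0.40 for the median member. This limit covers the spot measurement and not the difference between cultures. Of 38 members measured above background on both arrays, 5 were higher and 4 lower beyond it in cordyceps, where 15.0% and 13.5% of all genes were. Of 37 members so measured in sunitinib, 17 were higher and 5 lower, where 22.5% and 21.9% of all genes were. These shares of all genes are also the background for the counts by role. Whether the treated arrays differed in these counts was not tested.

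**Figure D2:**
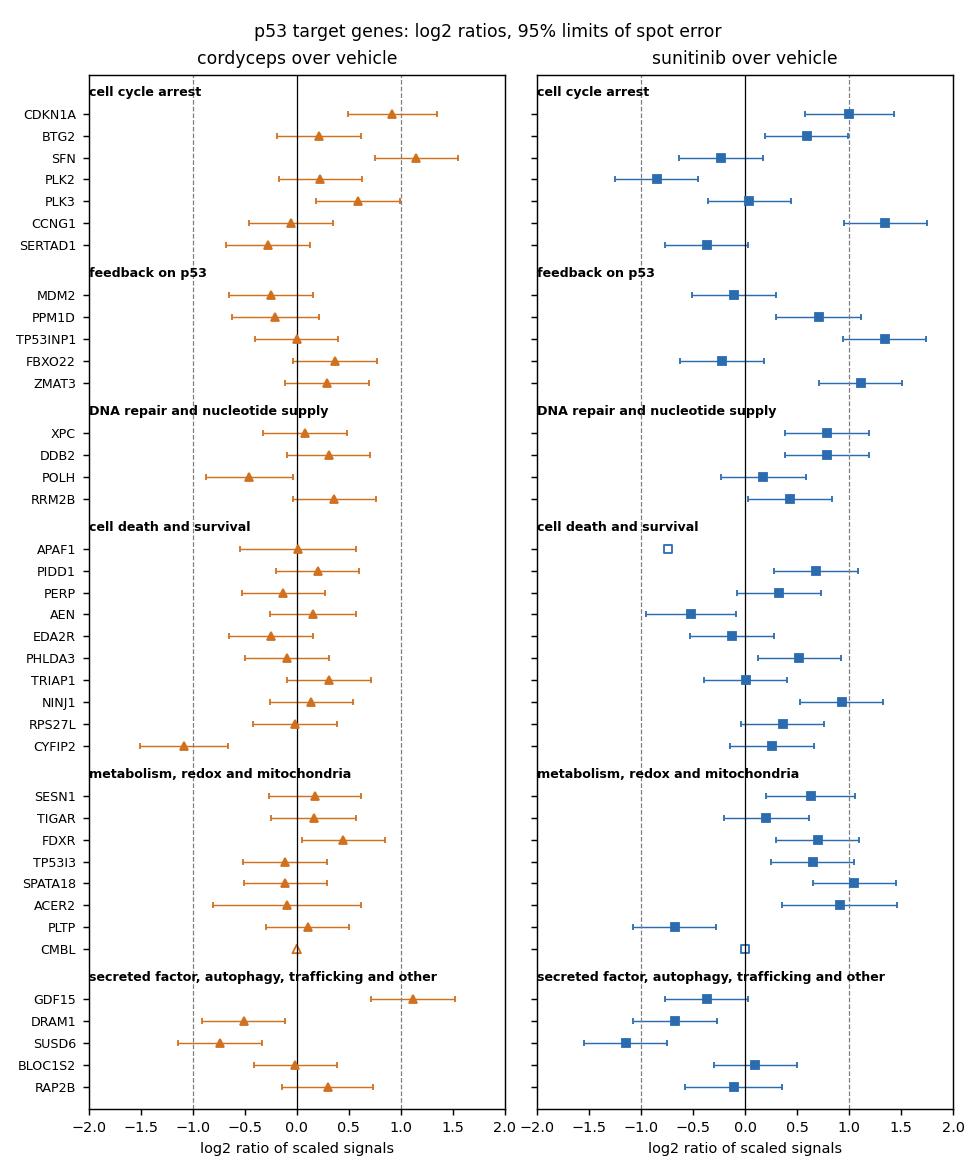
Log2 ratio of scaled signals over vehicle for each of the 39 genes in cordyceps (left) and sunitinib (right), with bars for the 95% limit of the spot error, open points for genes measured above background on only 1 of the 2 arrays, and dashed lines at 2-fold. In sunitinib 4 genes lie to the right of the 2-fold line and 17 have bars clear of 0 on that side, against 2 and 5 in cordyceps.

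Among the 7 genes of cell cycle arrest, CDKN1A, which encodes the cyclin-dependent kinase inhibitor p21 and is the best known p53 target, had scaled signals of 0.842 in vehicle, 1.59 in cordyceps and 1.68 in sunitinib. Both treated arrays were above vehicle, and the log2 ratios of 0.92 in cordyceps and 0.999 in sunitinib lay just under the 2-fold limit. The ratio in cordyceps was 1.14 under median scaling, past the limit, but 0.96 relative to the median gene under that scaling. That in sunitinib was 1.002 with the 75th percentile of detected probes and 1.02 under quantile normalization. Under normexp the ratios in cordyceps and sunitinib were 0.61 and 0.57. SFN, which encodes 14-3-3σ, a protein that holds mitotic kinases in the cytoplasm, had 12.7, 28.2 and 10.8. It was high in the cordyceps array alone, with log2 ratios of 1.15 and −0.23. CCNG1, which encodes cyclin G1, which brings a phosphatase to MDM2, showed the opposite picture with 5.75, 5.53 and 14.6. Its log2 ratio was −0.06 in cordyceps and 1.35 in sunitinib, the highest of the 39 genes there, and its second probe had 0.04 and 0.96. PLK2, a polo-like kinase of the G1 phase whose promoter stretch is shown above, had 157, 184 and 87.3, with log2 ratios of 0.23 and −0.85. PLK3, its relative in the stress response, had 16.3, 24.5 and 16.7, and was above vehicle beyond the spot error in cordyceps alone with a log2 ratio of 0.59. BTG2, an antiproliferative cofactor of mRNA deadenylation, had 5.88, 6.82 and 8.86, with log2 ratios of 0.21 and 0.59. SERTAD1, a regulator of CDK4 and of E2F activity, had 6.01, 4.97 and 4.65, both below vehicle by less than the spot error limit. Over the group, 3 of 7 were higher and none lower beyond the spot error in cordyceps, and 3 were higher and 1 lower in sunitinib.

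The 5 genes that feed back on p53 were close to vehicle in cordyceps, with log2 ratios from −0.25 to 0.37, none beyond the spot error. MDM2, the ligase that removes p53, had scaled signals of 5.24, 4.41 and 4.86 in vehicle, cordyceps and sunitinib for its brightest probe, with log2 ratios of −0.25 and −0.11. Its 3 probes did not share a direction, with log2 ratios of −0.25, −0.08 and 0.05 in cordyceps and −0.11, 0.40 and 0.61 in sunitinib, so no direction is given for MDM2. TP53INP1, a stress protein that promotes p53 phosphorylation and autophagy, had 5.71, 5.71 and 14.5, which is level in cordyceps and 1.34 on the log2 scale above vehicle in sunitinib. Its second probe had −0.176 and 0.868, so its place past 2-fold in sunitinib rests on 1 of its probes. ZMAT3, an RNA-binding zinc finger protein that alters splicing and mRNA stability, had 2.96, 3.62 and 6.37, with log2 ratios of 0.29 and 1.11. PPM1D, which encodes the phosphatase Wip1 that dephosphorylates p53 and its kinases, had 1.59, 1.38 and 2.60, with log2 ratios of −0.21 and 0.71. FBXO22, the substrate receptor of a ubiquitin ligase, had 3.63, 4.69 and 3.12 and stayed within the spot error on both treated arrays. The median of the group in sunitinib was 0.71, with 3 of 5 higher and none lower beyond the spot error.

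All 4 genes of DNA repair and nucleotide supply lay above vehicle in sunitinib, 3 of them beyond the spot error, with a median log2 ratio of 0.61. DDB2, which recognises ultraviolet lesions and carries the pair of decamers shown above, had scaled signals of 41.1 in vehicle, 50.9 in cordyceps and 71.0 in sunitinib. Its log2 ratios were 0.31 and 0.79, the latter beyond the spot error. XPC, which recognises distorted DNA in the same excision pathway, had 2.70, 2.86 and 4.67, with log2 ratios of 0.08 and 0.79. RRM2B, a ribonucleotide reductase subunit that supplies nucleotides outside S phase, had 3.48, 4.47 and 4.69, with log2 ratios of 0.36 and 0.43. POLH, the translesion polymerase η, had 2.22, 1.62 and 2.51. Its log2 ratio was −0.45 in cordyceps, below vehicle beyond the spot error, and 0.18 in sunitinib.

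Of the 10 genes of cell death and survival, none was higher and 1 lower beyond the spot error in cordyceps, and 3 were higher and 1 lower in sunitinib, where 22.5% and 21.9% of all genes were. NINJ1, whose protein ruptures the plasma membrane of dying cells, had scaled signals of 88.7, 97.8 and 169 in vehicle, cordyceps and sunitinib, with log2 ratios of 0.14 and 0.93. PIDD1, the scaffold of the caspase-2 activating PIDDosome, had 35.9, 41.4 and 57.6, with log2 ratios of 0.20 and 0.68. PHLDA3, a repressor of Akt signalling, had 8.22, 7.70 and 11.8, with log2 ratios of −0.09 and 0.52. In these 3 genes the sunitinib array stood above both others. CYFIP2, a subunit of the actin-regulating WAVE complex, had 2.50, 1.18 and 2.99, and was the lowest of the 39 genes in cordyceps with a log2 ratio of −1.09, against 0.26 in sunitinib. A second CYFIP2 probe had a log2 ratio of 0.21 in cordyceps, so its place past 2-fold rests on 1 of its probes. AEN, an apoptosis-enhancing nuclease with a decamer in its promoter, had 1.55, 1.73 and 1.08, with log2 ratios of 0.15 and −0.53, and its second probe had 0.19 in sunitinib. APAF1, the scaffold of the apoptosome, had 0.392 and 0.397 in vehicle and cordyceps and was not well above background in sunitinib. With the sunitinib side set at the detection limit it was 1.67-fold lower than in vehicle. That log2 ratio of −0.742 was within its own spot error limit of 0.918. Relative to the median gene under normexp it was 0.006, so no direction is given for APAF1 in sunitinib. The remaining 4 genes stayed within the spot error on both treated arrays. They were PERP (desmosome-associated), EDA2R (a TNF receptor family member), TRIAP1 (a mitochondrial survival factor) and RPS27L (a ribosomal protein paralogue with a decamer in its promoter), with log2 ratios between −0.25 and 0.36.

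The 8 genes of metabolism, redox and mitochondria included 5 that were higher and 1 that was lower beyond the spot error in sunitinib, where 22.5% and 21.9% of all genes were, with a median log2 ratio of 0.64. SPATA18, a factor in the removal of damaged mitochondrial protein, had scaled signals of 4.48, 4.16 and 9.28 in vehicle, cordyceps and sunitinib. Its log2 ratios were −0.11 and 1.05. FDXR, the mitochondrial ferredoxin reductase, with a decamer in its promoter, had 41.6, 56.8 and 67.4. It was the only gene of this group above vehicle beyond the spot error in both treated arrays, with log2 ratios of 0.45 and 0.70. The ratio in cordyceps was within the limit of 0.40 under quantile normalization, at 0.22, and under normexp, at 0.36. SESN1, a sestrin that restrains mTORC1, also with a decamer, had 0.790, 0.892 and 1.22, with log2 ratios of 0.17 and 0.63. TP53I3, a quinone oxidoreductase, had 9.60, 8.89 and 15.1, with log2 ratios of −0.11 and 0.65, and its second probe had 0.11 and 0.71. ACER2, an alkaline ceramidase of the Golgi, had 0.266, 0.249 and 0.500 and log2 ratios of −0.09 and 0.91. For these 3 genes the cordyceps array differed from vehicle by less than the spot error. PLTP, the phospholipid transfer protein, ran the other way with 30.1, 32.4 and 18.8, and a log2 ratio of −0.68 in sunitinib. TIGAR, a phosphatase that lowers glycolytic flux, had 1.94, 2.17 and 2.24 and stayed within the spot error. CMBL, a cytosolic hydrolase, was well above background on the vehicle array alone, at 0.167, and no ratio is given for it.

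The other 5 genes covered a secreted factor, autophagy, membranes and trafficking. GDF15, a secreted TGF-β family member that reports on many kinds of cell stress, had scaled signals of 868 in vehicle, 1885 in cordyceps and 671 in sunitinib. Its log2 ratios were 1.12 and −0.37. In cordyceps it lay just under 2-fold under quantile normalization and normexp, at 0.97 each, and in sunitinib it was −1.01 under quantile normalization, past 2-fold lower. SUSD6, a membrane protein with a sushi domain, had 28.6, 17.2 and 12.9. It was below vehicle on both treated arrays, with log2 ratios of −0.74 and −1.15. DRAM1, a lysosomal membrane protein that promotes autophagy, had 69.8, 49.0 and 43.8, with log2 ratios of −0.51 and −0.67. Both SUSD6 and DRAM1 were thus lower beyond the spot error in each treated array. RAP2B, a small GTPase with a decamer in its promoter, had 0.754, 0.928 and 0.698, and BLOC1S2, a subunit of lysosome-positioning complexes, had 13.5, 13.3 and 14.4, all within the spot error.

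The 2 treated arrays can also be set against each other, which leaves the vehicle array out. Of 38 members compared, 3 were more than 2-fold higher in cordyceps than in sunitinib, against 9.49% of all genes, namely GDF15 at a log2 ratio of 1.49, SFN at 1.38 and PLK2 at 1.08. On the other side 5 were more than 2-fold lower, against 7.59%, namely CCNG1 at −1.41, CYFIP2 at −1.34, TP53INP1 at −1.34, SPATA18 at −1.16 and ACER2 at −1.004. With the median gene at 0, ACER2 was −0.99, and CYFIP2, SPATA18 and ACER2 were within 2-fold under normexp, at −0.92, −0.92 and −0.53. The second probes of CCNG1 (scaled signals of 2.55 in cordyceps and 4.815 in sunitinib) and CYFIP2 (0.316 and 0.455) were within 2-fold. That of TP53INP1 (0.79 and 1.63) was past it. The cordyceps signal of ACER2 was 34.4, close to 30.2, the lowest called above background on that array. The median of the members was −0.19, beside −0.01 for all genes. The doses are not matched in kind, and the values describe these arrays only.

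The choice of scaling moved the median of all genes, and quantile normalization and normexp also moved genes by unequal amounts. Each member was therefore set against the median gene under 6 scalings and background corrections. In cordyceps 18 of the 39 genes were above the median gene under all 6, 13 below under all 6, and 8 changed side, which were TP53INP1, APAF1, NINJ1, RPS27L, ACER2, PLTP, CMBL and BLOC1S2. In sunitinib the counts were 20, 10 and 9, and the genes that changed side were PLK3, MDM2, POLH, APAF1, TRIAP1, RPS27L, CMBL, BLOC1S2 and RAP2B. CMBL, for which no ratio is given, counted as 0, or −0.005 in cordyceps under normexp, before the median gene was subtracted. Its change of side therefore says nothing about CMBL. GDF15 and SFN in cordyceps and CCNG1, TP53INP1, ZMAT3 and SPATA18 in sunitinib were above the median gene under all 6. As these genes were named for passing 2-fold, quantile normalization and normexp alone could have changed their side. Their size was less stable. With normexp background correction and an offset of 50, none of the 39 passed 2-fold higher in sunitinib, and CCNG1 alone did once the median gene was set to 0.

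**Figure D3:**
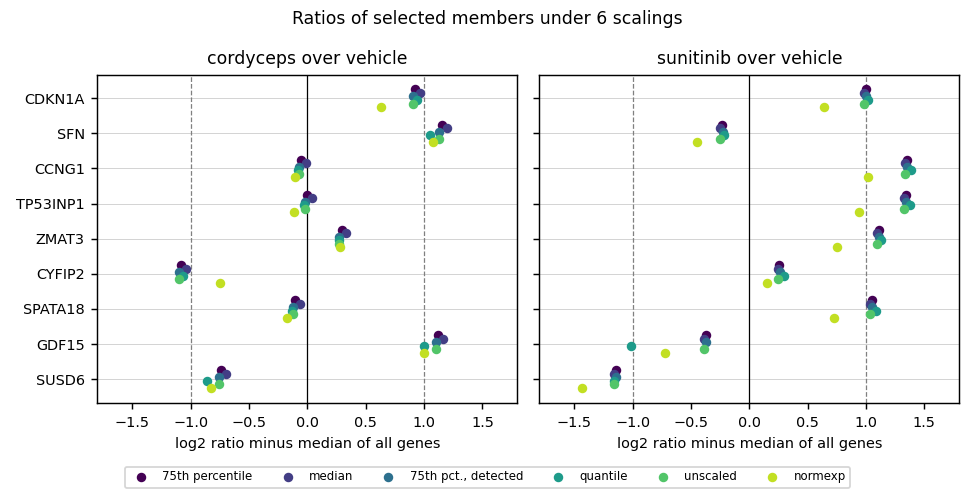
Log2 ratio over vehicle minus the median log2 ratio of all genes, in cordyceps (left) and sunitinib (right), for the members past 2-fold in either comparison and CDKN1A, with 1 point for each of 6 scalings or background corrections and dashed lines at 2-fold. The points of a gene stay on 1 side of 0 where its ratio is large, while several cross the 2-fold line under normexp.

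The rest of the pathway was read from lists of other genes. TP63 and TP73, which encode relatives of p53, were above background on no array. Of 24 regulators and family members compared, only CREBBP, a histone acetyltransferase that acts with p53, passed 2-fold in cordyceps, with a log2 ratio of −1.15. None did in sunitinib. Of all genes, 2.99% were higher and 2.76% lower past 2-fold in cordyceps, and 6.44% and 6.52% in sunitinib. The highest of the list were the checkpoint kinase CHEK2 at 0.77 in cordyceps and RPL5, a ribosomal protein that binds MDM2, at 0.68 in sunitinib. The medians of the list were −0.01 and −0.15.

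Among 11 p53 targets of cell death signalling that are not members, a decoy receptor included, 10 could be compared. In cordyceps none passed 2-fold in either direction, where 2.99% of all genes were higher and 2.76% lower. There 4 were higher and none lower beyond the spot error, where 15.0% and 13.5% of all genes were. These were BAX and BAK1, which permeabilise mitochondria, with log2 ratios of 0.96 and 0.60, and the BH3-only genes BBC3 and PMAIP1 with 0.48 and 0.47. The lowest there was the death receptor FAS at −0.21. The median of the list was 0.41 in cordyceps and −0.42 in sunitinib. In sunitinib 3 were higher and 5 lower beyond the spot error, where 22.5% and 21.9% of all genes were. Past 2-fold 1 was higher and 2 lower, where 6.44% and 6.52% of all genes were. PMAIP1 had a log2 ratio of −2.05 and the death receptor TNFRSF10A −1.35, while the decoy receptor TNFRSF10C had 1.43. Of 17 further targets compared, none was more than 2-fold higher in cordyceps and 2 were lower, where 2.99% and 2.76% of all genes were. The 2 were IGFBP3 at −2.10 and GADD45G at −1.76, and SHISA5 was highest at 0.37. In sunitinib 1 was higher, ADGRB1 at 1.27, and 4 were lower, where 6.44% and 6.52% of all genes were. Among the 4 were GADD45A at −1.79, IGFBP3 at −1.61 and GADD45G, which was at least 4.85-fold lower. The medians were −0.28 in cordyceps and −0.09 in sunitinib. Relative to the median gene under normexp, CREBBP in cordyceps, TNFRSF10C and ADGRB1 in sunitinib, and GADD45G in both were within 2-fold.

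Cell cycle genes that p53 is known to lower by way of p21 and the DREAM complex formed the last list, with 14 of 15 matched to a probe. In cordyceps 2 were more than 2-fold higher, CDK1 at 1.13 and BUB1 at 1.01, where 2.99% of all genes were, and 11 were higher beyond the spot error, where 15.0% were, with a median of 0.75. Relative to the median gene under normexp neither passed 2-fold, with CDK1 at 0.999 and BUB1 at 0.84. In sunitinib 12 of the 14 were more than 2-fold lower, where 6.52% of all genes were, and 8 of the 14 were not well above background there, so their ratios are bounds. Under the main scaling CDK1 was at least 14.5-fold lower, and BIRC5, which encodes survivin, had a log2 ratio of −2.84. Of the 6 measured on both arrays, the highest was FOXM1 at −1.53. In cordyceps 12 of the 14 lay above vehicle, with MYBL2 lowest at −0.13, and in sunitinib all 14 lay below. Relative to the median gene under normexp, 7 stayed past 2-fold lower in sunitinib. Among them CDK1 was −2.17, a smaller difference than its bound under the main scaling. FOXM1 was −0.68, CCNA2 −0.43 and CDC25A −0.04, and AURKB lay above the median gene at 0.07. CDKN1A was above vehicle in both treated arrays, as given above, and its part in these ratios was not tested.

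**Figure D4:**
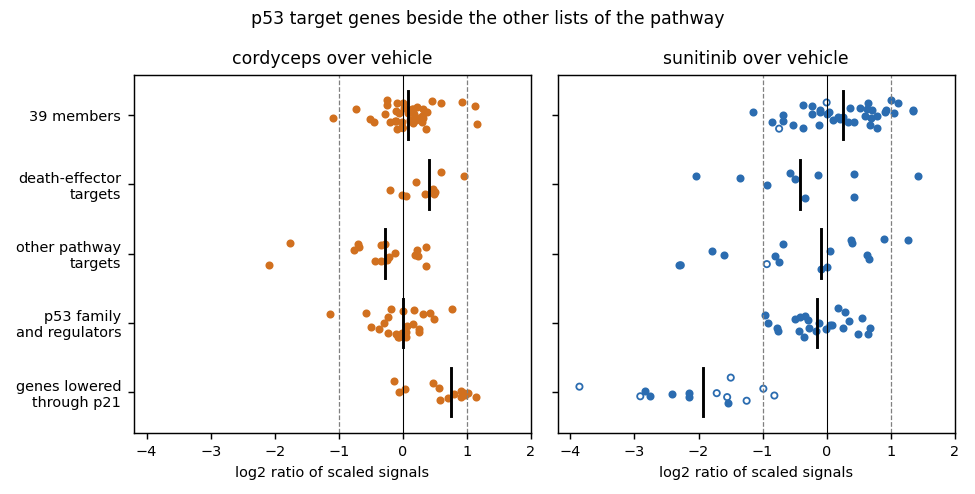
Log2 ratio of scaled signals over vehicle in cordyceps (left) and sunitinib (right) for the 39 members and the other lists of the p53 pathway, with 1 point per gene, open points for bounds, black bars at the median of each list and dashed lines at 2-fold. The members have medians of 0.08 and 0.26, whereas the genes lowered through p21 have a median of 0.75 in cordyceps and −1.93 in sunitinib.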

How the data were processed

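For each of the 3 arrays the authors deposited Agilent Feature Extraction 11.5.1.1 output, in which the processed signal is an intensity on a linear scale after background subtraction. Their value table equalled the mean processed intensity of each probe's spots within 0.01% for 99.87% to 99.92% of probes, and is unscaled. The paper's methods describe a red over green ratio and another array type, and of these the analysis kept the 2-fold limit alone.

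Control spots and outlier spots were left out, spots of a probe averaged, and log2 taken relative to the array's 75th percentile. Probes were named by accession through RefSeq (GRCh38.p14), giving 31104 of 58201 probes a gene. The brightest probe over the arrays stands for a gene. A ratio needed a probe well above background on 1 of the 2 arrays, with the dimmer side at its detection bound otherwise. Where that bound gave no ratio, the gene counted as 0 in medians. The members, the 6 roles, the other lists and the alternatives were chosen with earlier results of these data known. The rule named all members, and of each other list the genes past 2-fold and the highest and lowest, except that some genes of the other lists are not reported here. BAK1, BBC3, AURKB, CCNA2, CDC25A and the cell type markers with values were named after their values were seen. The tools were R 4.3.3 with limma 3.58.1, and Python 3.11.15 with pandas 2.3.3, numpy 2.4.6, matplotlib 3.10.9 and scipy 1.17.1. On simulated arrays for cordyceps over vehicle with 14680 genes compared, 200 of 200 changed genes and 0 unchanged genes were called. The simulation copied the vehicle array with less noise than the spot error and changed only bright genes, by well over 2-fold. It held no difference between cultures, so it checks the code and gives no rate of false calls for these arrays. The number of arrays limits the precision, and 13 alternatives were set, with 4 added after the data were seen.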

Additional observations from a re-analysis of the deposited data

How the results depend on the processing

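The number of members past 2-fold moved with the settings, and the cause was not tested. In cordyceps the 2 higher became 3 under median scaling, with CDKN1A added, 1 under quantile normalization (also when centred on the median gene), 1 under normexp (also when centred), 0 with the unscaled deposited values and 4 at 1.5-fold. The 1 lower became 0 under median scaling, normexp (also when centred) and the mean of probes, and 2 with no filter or at 1.5-fold. In sunitinib the 4 higher became 5 with the 75th percentile of detected probes and under quantile normalization (also when centred), with CDKN1A added, 2 under median scaling, 0 unscaled, 0 under normexp, 1 under centred normexp and 15 at 1.5-fold. The 1 lower became 5 under median scaling, 3 under quantile normalization (2 when centred), 15 unscaled, 3 under normexp (2 when centred), 2 with no filter and 5 at 1.5-fold. The members' median of 0.08 in cordyceps became 0.30 under median scaling and −0.15 unscaled, and that of 0.26 in sunitinib became −0.005 and −0.75. These 2 scalings moved the median of all genes too, by 0.18 and −0.24 in cordyceps and by −0.31 and −1.06 in sunitinib. Centred on the median gene, both gave 2 members higher and 1 lower in cordyceps, as under the main scaling. In sunitinib both gave 4 higher and 1 lower when centred, also as under the main scaling. Of all genes past 2-fold, 52.0% were higher in cordyceps, against 77.0% under median scaling, 24.7% unscaled and 62.7% with no filter. In sunitinib 49.7% were higher, against 21.3%, 1.97% and 80.5%, and 27.8% under normexp. With the unscaled values, whose median gene lies at −1.06, SPATA18 in sunitinib was −0.024 on the log2 scale, and most other members were below 0 there too. The 75th percentile of detected probes, both arrays above background, kept outlier spots, the brightest probe of the 2 arrays and the bright area left out moved no member by more than the spot error. No paired analysis was possible because each condition had 1 array, and no replicate could be left out. Signal over background limits APAF1 and CMBL.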
